A study of Mus musculus with 8 samples.

Results

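Antigen processing for MHC class I is the route by which a cell shows fragments of its own proteins at its surface. The 10 genes described here are Tap1, Tap2, Tapbp and Tapbpl for peptide transport and loading, Psmb8, Psmb9 and Psmb10 for the catalytic subunits of the immunoproteasome, Psme1 and Psme2 for the proteasome activator PA28, and Nlrc5 for a transcriptional activator of the pathway. They were chosen by function, with earlier results of these data known, and found by matching Ensembl identifiers to mouse symbols. They are 10 of the 55359 genes in the deposited table. All 10 passed the filter on low counts, as did 15164 genes in all. The cells were MLO-Y4, a mouse line that the labels give as wild type and as osteocyte. Of the 8 libraries, 4 came from non-irradiated cells and 4 from cells irradiated with a pulsed Er:YAG laser (2940 nm, 6.0 J/cm2 for 1 min, with the culture medium removed and the emitter 25 cm above the bottom of the 35-mm dish, 72 h after seeding). Poly(A) RNA was sequenced 6 h after irradiation, and the question addressed is which transcripts differ after irradiation. The labels do not say whether the medium was also removed from the non-irradiated dishes, so that step and the laser cannot be told apart here.

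In textbook outline, the proteasome cuts proteins into peptides, the TAP1-TAP2 transporter moves peptides into the endoplasmic reticulum, and tapasin (Tapbp) holds the transporter beside empty class I molecules while they are loaded. Interferons raise the immunoproteasome subunits, which replace the constitutive catalytic subunits in newly built particles and alter which peptides are made. STAT and IRF factors carry that signal to the promoters, and NLRC5 binds class I promoters together with the RFX and NF-Y proteins.

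Library totals ran from 43786209 to 51734166 counts. The deposited table numbers the libraries, and those numbers are kept, though they match no sample title. By the first letter of the column name, C5 to C8 are the non-irradiated libraries and L5 to L8 those from irradiated dishes. Levels are given as CPM, a gene's share of the library's TMM-scaled total count. Of the 7 osteocyte markers Pdpn, Gja1 and Phex were detected in every library and Dmp1 in 6 of 8, while Sost, Mepe and Fgf23 were at 0. Pdpn rose from 487 ± 12.6 to 608 ± 23.2 CPM (log2 fold change 0.32, edgeR adjusted p = 4.88e-07) and Gja1 from 250.1 ± 5.18 to 318 ± 9.91 CPM (log2 fold change 0.35, adjusted p = 1.84e-07), and Phex did not pass the test (adjusted p = 0.559). The summed level of these markers ran from 739 to 765 CPM in non-irradiated and from 927 to 961 CPM in irradiated libraries. Of 10 leukocyte and antigen-presenting cell markers, Ptprc, Cd3e, Adgre1, Itgam, Flt3 and Cd86 had 0 counts in all 8 libraries, which allows up to 0.0685 CPM in the smallest one (3 counts, counting error only). The counts scatter as if about 4 stood for 1 fragment, which is not settled here, and the limit would then be 12 counts or 0.274 CPM. The marker that passed the filter on low counts was Csf1r, the CSF1 receptor of macrophages and osteoclast precursors, which rose 1.85-fold from 14.2 ± 1.17 to 26.2 ± 1.20 CPM (edgeR adjusted p = 1.06e-07, named after its values were seen). The summed level of the list ran from 13.2 to 15.9 CPM in non-irradiated and from 24.8 to 27.5 CPM in irradiated libraries. The part of either marker list in the fall of the 10 genes was not tested. Of the endothelial and epithelial markers Cdh5, Epcam and Cdh1 were at 0 and Pecam1 stayed under 0.43 CPM.

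All 10 genes were lower in irradiated cells (adjusted p from 1.46e-06 to 0.027 by edgeR with Benjamini-Hochberg adjustment), against 6.75% of tested genes called lower, 8.22% called higher and 15.0% called in either direction. The table as a whole had 1247 genes called higher and 1023 lower, and with library totals alone in place of TMM 1050 higher and 1345 lower, with all 10 genes lower under both. The falls were modest, from 1.11-fold for Tapbp to 1.36-fold for Psmb9. The median log2 fold change of the 10 was -0.32, against -0.0065 over all tested genes and -0.25 over the 1023 genes called lower. In 9 of the 10 every irradiated library lay below every non-irradiated one, which held for 8.78% of tested genes (9.76% had no overlap in the upward direction). The exception was Psmb8. The 10 genes were chosen with earlier results of these data known, so these shares describe the set and do not test it. The summed level of the 10 genes ran from 1328 to 1393 CPM in non-irradiated and from 1131 to 1166 CPM in irradiated libraries. C6 was the lowest non-irradiated library for 5 of the 10 genes and L6 the highest irradiated one for 5, against 39.3% and 41.6% of the genes called lower. In these bulk libraries fewer cells of a type and less RNA per cell cannot be told apart. Whether replicates came from separate cultures is not stated in the labels. Each p-value therefore reflects only how far these libraries scatter, and that scatter may be technical.

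**Figure D1:**
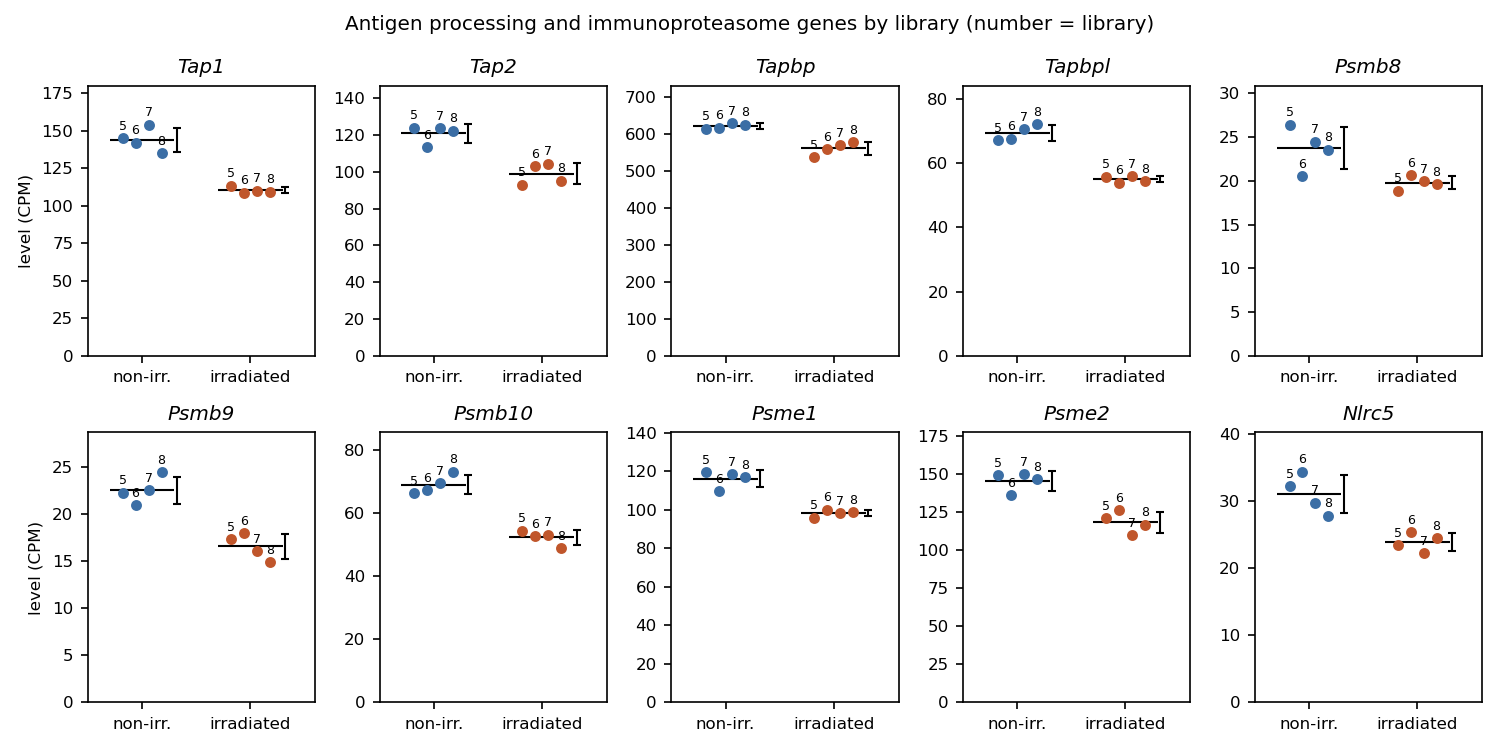
Level of each gene in CPM (y axis, from 0) in the 4 non-irradiated (blue) and 4 irradiated (orange) libraries, each point marked with its library number; lines are means and bars to the right are SD. The groups are apart in all panels except Psmb8, where C6 (20.6 CPM) lies below L6 (20.7 CPM).

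The transporter and its loading partners come first in the peptide's path into the endoplasmic reticulum. Tap1 (ENSMUSG00000037321.18), a transporter chain that binds peptide and ATP, stood at 145, 142, 154 and 135 CPM in C5 to C8 and at 113, 109, 110.2 and 109.5 CPM in L5 to L8. The irradiated libraries were close together and all below the lowest non-irradiated one, C8. The means were 144 ± 7.9 and 111 ± 2.07 CPM (SD, n = 4 each), a 1.3-fold fall (log2 fold change -0.38, SE 0.041, edgeR adjusted p = 1.46e-06), the lowest p of the 10.

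Tap2 (ENSMUSG00000024339.13), the partner chain of Tap1, stood at 124, 113, 124 and 122 CPM in C5 to C8 and at 92.9, 103, 104 and 95.2 CPM in L5 to L8. C6 was the low one of its group and still above every irradiated library. The fall was 1.22-fold (log2 fold change -0.29, SE 0.045, edgeR adjusted p = 0.000131). The log2 ratio of Tap1 to Tap2 counts within a library was 0.25 ± 0.085 in non-irradiated and 0.16 ± 0.10 in irradiated cells, with overlapping groups, a difference of -0.091 (SE 0.067, exact two-sided permutation p = 0.2, adjusted p = 0.24 over 6 ratios). An unequal fall of the transporter chains was thus not detectable.

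Tapbp (ENSMUSG00000024308.16), the gene of tapasin, stood at 614, 616, 629 and 625 CPM in C5 to C8 and at 537, 558, 569.9 and 577 CPM in L5 to L8. The non-irradiated libraries were nearly level, and all irradiated ones lay below them. This was the smallest fall of the 10, 1.11-fold (log2 fold change -0.15, SE 0.028, edgeR adjusted p = 0.00108), in the most abundant of them.

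Tapbpl (ENSMUSG00000038213.8) encodes TAPBPR, a tapasin relative that exchanges peptides on class I molecules without the transporter. It stood at 67.3, 67.6, 70.6 and 72.2 CPM in C5 to C8 and at 55.8, 53.9, 56.1 and 54.5 CPM in L5 to L8, narrow groups well apart. Its fall was 1.26-fold (log2 fold change -0.33, SE 0.046, edgeR adjusted p = 3.15e-05), against 1.11-fold for Tapbp.

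The immunoproteasome subunits provide the cutting sites. Psmb9 (ENSMUSG00000096727.4), which encodes the subunit beta1i that takes the place of the Psmb6 product, stood at 22.2, 20.9, 22.5 and 24.4 CPM in C5 to C8 and at 17.3, 17.9, 16.1 and 14.8 CPM in L5 to L8. All 4 irradiated libraries lay below C6, the lowest of the others. It had the largest fall of the 10, 1.36-fold (log2 fold change -0.44, SE 0.08, edgeR adjusted p = 0.00062).

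Psmb10 (ENSMUSG00000031897.10), which encodes beta2i, the substitute for the Psmb7 product, stood at 66.3, 67.4, 69.5 and 73.3 CPM in C5 to C8 and at 54.5, 52.7, 53.2 and 49.0 CPM in L5 to L8. The gap between the groups was wider than the range within either. The fall was 1.32-fold (log2 fold change -0.40, SE 0.05, edgeR adjusted p = 1.2e-05).

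Psmb8 (ENSMUSG00000024338.16) encodes beta5i, the substitute for the Psmb5 product. Its RefSeq promoter window is shown because, among the member windows found, it alone held a match to the gamma-activated site. That is an element of promoters that respond to interferon gamma, and its letters were in 8.3% of 32851 promoters. The window runs from 250 bases before to 50 bases after the gene's start (GRCm38.p6, chr17:34197945-34198244, plus strand, 5′ to 3′), and the capitals mark the match, 97 to 89 bases before the start:

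Psmb8: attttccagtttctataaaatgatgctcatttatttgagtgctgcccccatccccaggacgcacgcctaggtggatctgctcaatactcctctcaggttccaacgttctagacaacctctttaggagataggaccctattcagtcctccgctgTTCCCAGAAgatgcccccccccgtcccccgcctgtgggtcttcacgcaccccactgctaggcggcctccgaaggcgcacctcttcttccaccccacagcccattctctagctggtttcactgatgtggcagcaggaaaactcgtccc

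Psmb8 stood at 26.4, 20.6, 24.5 and 23.6 CPM in C5 to C8 and at 18.9, 20.7, 19.97 and 19.6 CPM in L5 to L8. C6 lay among the irradiated libraries, and the other non-irradiated ones lay above them. The fall was 1.2-fold (log2 fold change -0.26, SE 0.078, edgeR adjusted p = 0.027), the weakest call of the 10. It was lost without C5 (adjusted p = 0.119), C7 (0.0816), C8 (0.0564), L5 (0.0877), L7 (0.0645) or L8 (0.0667), and it held without C6 or L6.

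The constitutive subunits Psmb5, Psmb6 and Psmb7 did not pass the test. Psmb5 was at 88.3 ± 2.01 and 83.4 ± 4.87 CPM (a log2 change of -0.083, SE 0.046, edgeR adjusted p = 0.254). Psmb6 was at 161 ± 7.59 and 153 ± 6.43 CPM (-0.079, SE 0.041, adjusted p = 0.222), and Psmb7 at 126 ± 3.44 and 124 ± 5.80 CPM (-0.019, SE 0.04, adjusted p = 0.826). Ratios within a library compare each immunoproteasome subunit with the one it replaces and do not depend on library scaling.

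The log2 ratio of Psmb9 to Psmb6 was -2.84, -2.86, -2.91 and -2.76 in C5 to C8 and -3.12, -3.17, -3.19 and -3.35 in L5 to L8. Every irradiated library was lower, by -0.37 on average (SE 0.058). Psmb10 to Psmb7 gave -0.93, -0.86, -0.91 and -0.76 in C5 to C8 and -1.27, -1.25, -1.16 and -1.29 in L5 to L8, again with no overlap and a difference of -0.38 (SE 0.047). Psmb8 to Psmb5 gave -1.72, -2.07, -1.89 and -1.91 against -2.10, -2.06, -1.96 and -2.17, with overlap and a difference of -0.17 (SE 0.084, exact permutation p = 0.0857, adjusted p = 0.129). For the pairs without overlap the exact two-sided permutation p was 0.0286, the smallest that 4 against 4 libraries can give. After adjustment over the 6 ratios it was 0.0571, so no ratio passed the 0.05 threshold. That adjusted value follows from how many of the 6 ratios had no overlap, not from the size of the shift.

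Per length of the principal transcript, Psmb9 made up 7.61% ± 0.289 of the summed Psmb9 and Psmb6 level in non-irradiated and 6.01% ± 0.382 in irradiated cells. Psmb10 made up 32.7% ± 1.18 and 27.2% ± 0.758 of its pair, and Psmb8 12.9% ± 1.13 and 11.6% ± 0.625. The constitutive subunit was thus the more abundant transcript in each pair and in both groups. With the median transcript length the non-irradiated shares were 17.4% for Psmb9 and 19.6% for Psmb8, so the size of these shares depends on the length taken, and Psmb10 had the highest share and Psmb9 the lowest by either. Psmb11, the thymus-specific subunit, had 11 counts in C7 and 0 in the other libraries.

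**Figure D2:**
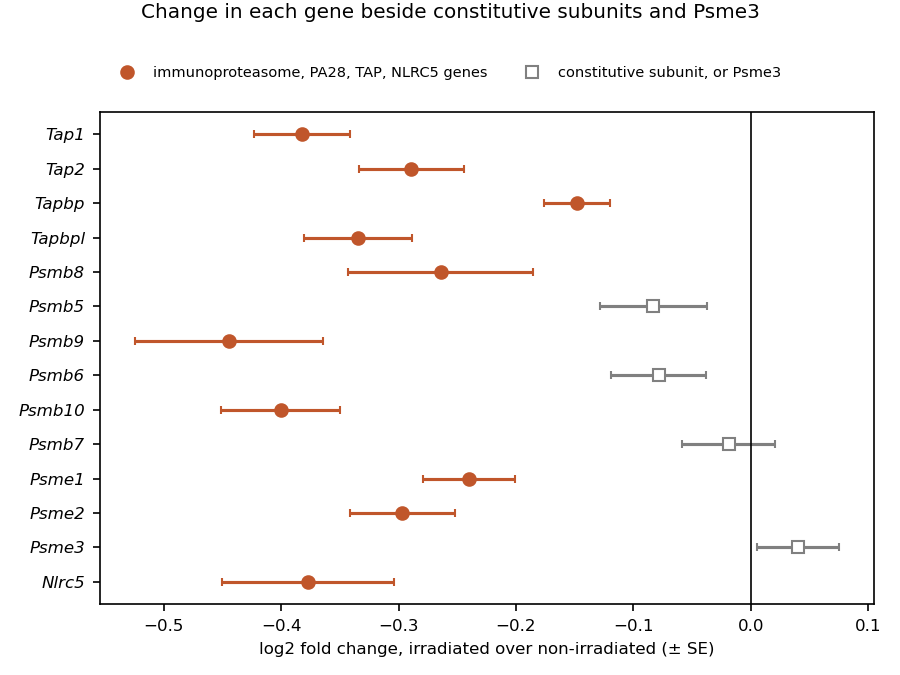
Log2 fold change with SE (x axis, irradiated over non-irradiated, 4 libraries each) of the 10 genes (filled orange circles) and of Psmb5, Psmb6, Psmb7 and Psme3 (open grey squares). The 10 genes lie from -0.44 (Psmb9) to -0.15 (Tapbp), and the squares from -0.083 (Psmb5) to 0.04 (Psme3).

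**Figure D3:**
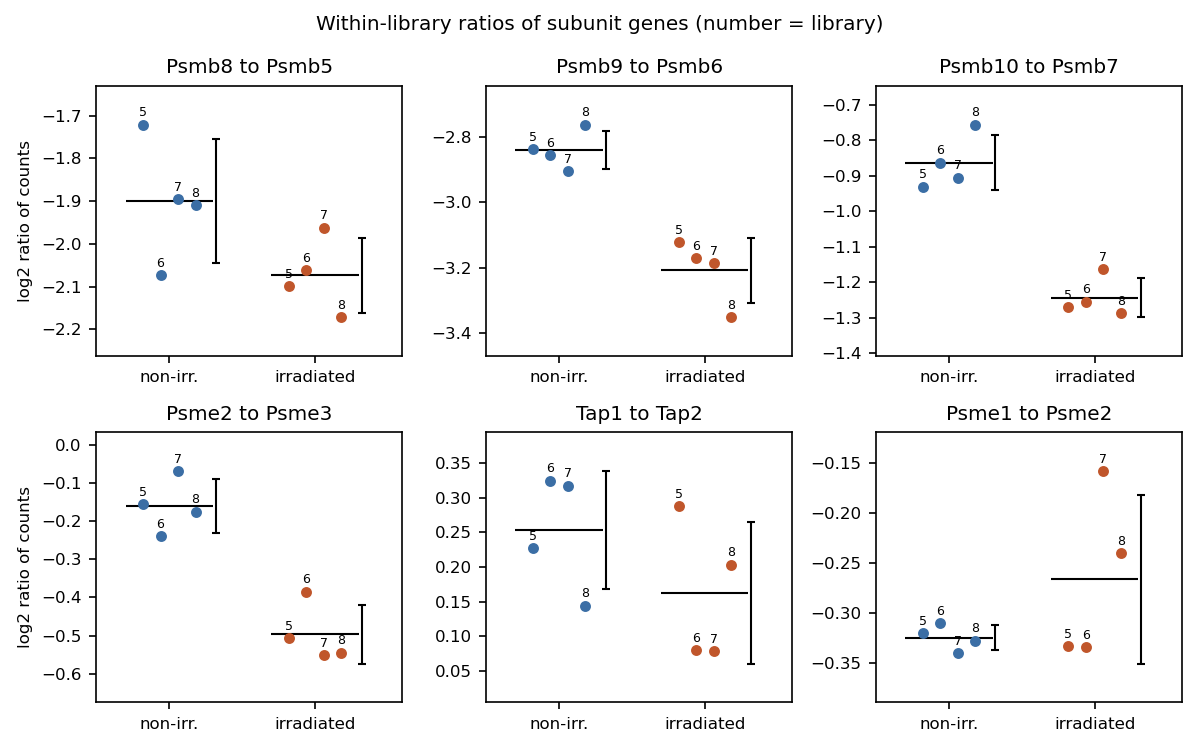
Log2 ratio of the counts of gene pairs within each library (y axis, range differs by panel), points marked with the library number, lines at means and bars of SD. The groups are apart for Psmb9 to Psmb6, Psmb10 to Psmb7 and Psme2 to Psme3, and overlap for the other pairs.

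PA28 is a ring of PSME1 and PSME2 subunits that caps the proteasome and opens its gate. Psme1 (ENSMUSG00000022216.18) stood at 119.6, 109.6, 118 and 117 CPM in C5 to C8 and at 95.9, 100.1, 98.4 and 98.9 CPM in L5 to L8. The highest irradiated library was below the lowest non-irradiated one, C6. The fall was 1.18-fold (log2 fold change -0.24, SE 0.039, edgeR adjusted p = 0.000212). Its promoter window (GRCm38.p6, chr14:55578244-55578543, plus strand, 5′ to 3′) is shown because, among the member windows found, it alone held a match to the interferon-stimulated response element core. That is an element of promoters that respond to type I interferon, and its core letters were in 3.44% of 32851 promoters. The capitals mark the match, at bases 10 to 19 from the gene's start:

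Psme1: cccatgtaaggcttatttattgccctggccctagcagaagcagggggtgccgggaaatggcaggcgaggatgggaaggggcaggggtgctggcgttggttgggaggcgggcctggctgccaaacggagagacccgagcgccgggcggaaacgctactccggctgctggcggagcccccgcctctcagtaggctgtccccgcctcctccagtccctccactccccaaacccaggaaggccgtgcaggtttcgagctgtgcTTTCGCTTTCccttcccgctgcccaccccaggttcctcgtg

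Psme2 (ENSMUSG00000079197.11) stood at 149, 136, 150.1 and 147 CPM in C5 to C8 and at 121, 126, 109.8 and 117 CPM in L5 to L8. The groups were apart, with C6 and L7 the low libraries of each. The fall was 1.23-fold (log2 fold change -0.30, SE 0.044, edgeR adjusted p = 8.6e-05). Psme2 has a near-identical intronless copy, Psme2b, and reads can be split between them.

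In these libraries Psme2b was at 49.3, 61.2, 50.3 and 49.6 CPM in C5 to C8 and at 37.8, 41.4, 53.9 and 46.5 CPM in L5 to L8, with overlapping groups (a log2 fold change of -0.23 with SE 0.114, edgeR adjusted p = 0.237). C6 and L7, the low libraries for Psme2, were the high ones for its copy, and the copy held 23.8% to 32.9% of the pair's counts. The sum of both genes was at 199, 197, 200.3 and 196 CPM in C5 to C8 and at 159, 168, 164 and 163 CPM in L5 to L8. Each group was then narrower than for Psme2 alone (SD 1.81 against 6.55 CPM in non-irradiated and 3.64 against 6.91 CPM in irradiated cells). The sum was 1.21-fold lower (log2 fold change -0.28, SE 0.032, edgeR adjusted p = 4.07e-06), a calculation added after the values were seen.

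**Figure D4:**
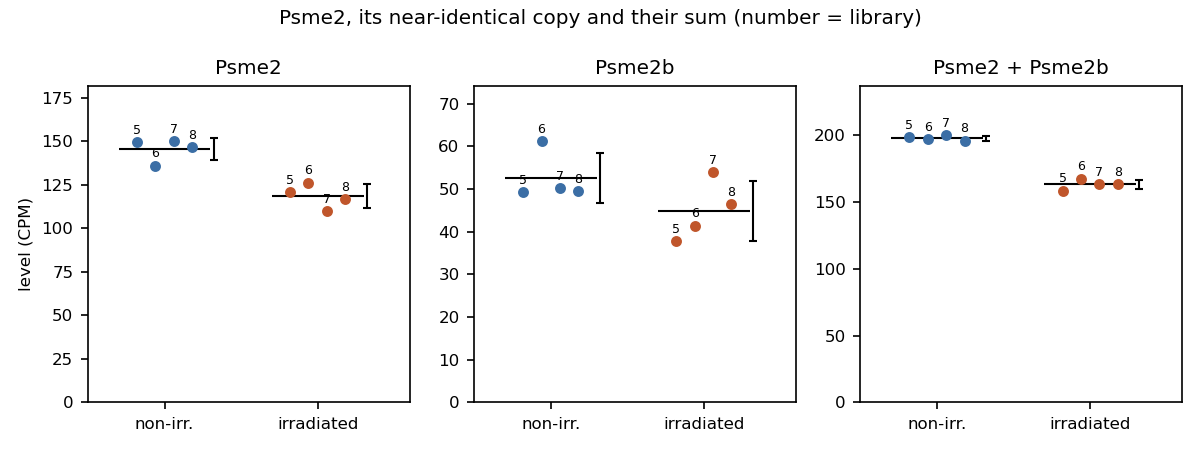
Level in CPM (y axis, from 0) of Psme2, of its near-identical copy Psme2b and of both summed, in each library (points marked with the library number, lines at means, bars of SD). C6 and L7 are low for Psme2 and high for Psme2b, and the summed groups lie at 196 to 200.3 and 159 to 168 CPM.

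Psme3, which encodes the nuclear activator PA28-gamma, did not pass the test (162 ± 4.24 and 167 ± 5.03 CPM, a log2 change of 0.04, SE 0.035, edgeR adjusted p = 0.518). The log2 ratio of Psme2 to Psme3 was lower in every irradiated library than in any other, by -0.34 (SE 0.052, exact permutation p = 0.0286, adjusted p = 0.0571). Psme1 to Psme2 gave -0.32 ± 0.013 and -0.27 ± 0.085, a difference of 0.058 (SE 0.043, exact permutation p = 0.343, adjusted p = 0.343). With the copy added to Psme2 that difference was 0.039 and the ratio was -0.77 ± 0.052 and -0.73 ± 0.0091 (adjusted p = 0.103). A change in the balance of the PA28 subunits was not detectable.

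Nlrc5 (ENSMUSG00000074151.14), the transactivator, had the lowest level per length. It stood at 32.1, 34.3, 29.7 and 27.8 CPM in C5 to C8 and at 23.4, 25.3, 22.2 and 24.4 CPM in L5 to L8. All 4 irradiated libraries lay below C8, the lowest of the others. The fall was 1.3-fold (log2 fold change -0.38, SE 0.073, edgeR adjusted p = 0.00119).

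Levels of different genes are comparable only per length. Per kb of the principal transcript, non-irradiated levels ran in the order Tapbp (214 ± 2.52 CPM per kb), Psme2 (151 ± 6.81), Psme1 (104 ± 4.05), Psmb10 (52.7 ± 2.33), Tap1 (48.8 ± 2.68), Tap2 (35.1 ± 1.45), Tapbpl (29.5 ± 1.01), Psmb9 (16.6 ± 1.07), Psmb8 (14.6 ± 1.5) and Nlrc5 (4.09 ± 0.375). Of neighbours in this order, the intervals of 1 SD met for Psmb10 and Tap1 and for Psmb9 and Psmb8. The principal transcript was taken after the median length, planned first, proved to be set by partial models, of 378 bases for Tap2 and 413 for Tapbp. By that median Tapbp (1504 CPM per kb) was again first, Tap2 (319.5) came second and Nlrc5 (5.39) was last.

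In the annotation (GENCODE M21, GRCm38) Psmb9, Tap1, Psmb8 and Tap2 are consecutive protein-coding genes on chromosome 17, within the MHC, and Tapbp lies on the same chromosome. Psme1 and Psme2 are on chromosome 14 with Emc9 between them, Nlrc5 and Psmb10 on chromosome 8 and Tapbpl on chromosome 6. Tap1 and Psmb9 are transcribed away from each other and share 212 exon bases on opposite strands, and whether counting used strand is not given in the sources used here, so reads over that overlap cannot be assigned. Tapbp shares 149 exon bases with Zbtb22 on the same strand, and Zbtb22 was at 27.8 and 26.9 CPM (edgeR adjusted p = 0.716). Emc9, which shares 14 exon bases with Psme1, gave a log2 fold change of -0.13 (edgeR adjusted p = 0.458). Non-coding genes on the opposite strand share exon bases with Tapbp (Gm19412, 904), Tap2 (Gm15821, 533, and Gm20496, 165), Psmb8 (Gm20496, 498) and Nlrc5 (9330175E14Rik, 78). Reads over those stretches cannot be assigned either. The mean level counted for each of these non-coding genes was at most 1.28 CPM in either group.

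RefSeq promoter windows were found for 7 of the 10 genes, and not for Tap2, Tapbpl or Nlrc5. The letters searched on both strands were GAAA, any 2 bases and GAAA for the interferon-stimulated response element core, TTCNNNGAA for the gamma-activated site and CCAAT for the NF-Y box. The first was in 1 of the 7 genes (Psme1) against 3.44% of 32851 promoters, the second in 1 (Psmb8) against 8.3%, and the third in 3 (Tap1, Psmb9 and Tapbp) against 37.4%. The Tap1 and Psmb9 windows are the same stretch on opposite strands over 275 bases, and their CCAAT matches are the same bases read from either strand, 1 site counted for both genes. Psmb10 and both windows of Psme2 held none of these letters. The search took exact letters, so an element that differs in letters or lies outside a window would be missed.

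The genes upstream of this set were examined from a list of 14 regulators, of which 13 were tested, 5 fell, 1 rose and 7 did not pass the test (median log2 fold change -0.095). Those that fell included Irf2 (1.33-fold, 20.6 ± 1.09 to 15.5 ± 1.10 CPM, edgeR adjusted p = 0.0011), Irf1 (1.32-fold, 111 ± 3.85 to 84.3 ± 3.92 CPM, adjusted p = 1.75e-06), Stat2 (1.3-fold, 360.1 ± 12.6 to 277 ± 4.89 CPM, adjusted p = 5.58e-08) and Irf9 (1.13-fold, adjusted p = 0.00295). These genes encode factors of the interferon response. Of the proteins that work with NLRC5, Rfx5, Rfxap and Rfxank did not pass the test (log2 fold changes -0.095, -0.11 and 0.18), and of the NF-Y subunit genes Nfya rose 1.18-fold (adjusted p = 0.000676) while Nfyb and Nfyc did not pass the test (log2 fold changes 0.07 and -0.039, adjusted p = 0.691 and 0.685). Irf9, the NF-Y and the RFX genes were named after their values were seen.

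Downstream, of 16 matched class I heavy chain genes and B2m 10 were tested. The fall passed the test for 5 of them and missed it for 5, and the median log2 fold change was -0.13. H2-Q4, a non-classical class I gene, fell 1.33-fold (58.4 ± 2.87 to 43.9 ± 1.95 CPM, edgeR adjusted p = 1.64e-05). The classical gene H2-K1 fell 1.1-fold (299.7 ± 4.04 to 272 ± 9.57 CPM, adjusted p = 0.00466), and H2-T23 and H2-T22 each 1.09-fold. H2-D1, also classical and named after its values were seen, did not pass the test (445 ± 1.89 and 435 ± 11.2 CPM, log2 fold change -0.034, edgeR adjusted p = 0.483). These heavy chain genes are similar in sequence, so reads can be split among them.

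Among 13 tested peptidases and loading partners 1 fell, 1 rose and 11 did not pass the test (median log2 fold change 0.012). Blmh, bleomycin hydrolase, a cytosolic peptidase, fell 1.21-fold (82.1 ± 1.46 to 68.0 ± 2.54 CPM, edgeR adjusted p = 0.000183), and Hspa5, the chaperone BiP, rose 1.16-fold (1578 ± 34.9 to 1832 ± 32.3 CPM, adjusted p = 5.23e-06). Erap1, the peptidase that trims peptides in the endoplasmic reticulum, was at 88.8 ± 4.15 and 84.2 ± 6.18 CPM (adjusted p = 0.371). Calr, Canx and Pdia3, chaperones of class I folding and loading, had log2 fold changes from -0.019 to 0.015. Erap1 and the chaperones were named after their values were seen.

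None of the 14 constitutive core proteasome genes passed the test in edgeR (0 called, 8 with an unadjusted p under 0.05), all 14 fold changes were below 0, and the median was -0.091 on the log2 scale. The lowest p-values belonged to Psmb1 (log2 fold change -0.12, adjusted p = 0.0596) and Psma1 (-0.11, adjusted p = 0.0628). With library totals alone 5 of the 14 were called lower, and with DESeq2 2. Of 8 assembly, activator and inhibitor genes 0 were called (1 with an unadjusted p under 0.05), Psmf1, an inhibitor, coming closest (log2 fold change -0.22, adjusted p = 0.0528, and called with DESeq2 and with library totals alone). Psmg2, an assembly chaperone, had the next lowest p (log2 fold change -0.16, adjusted p = 0.197).

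**Figure D5:**
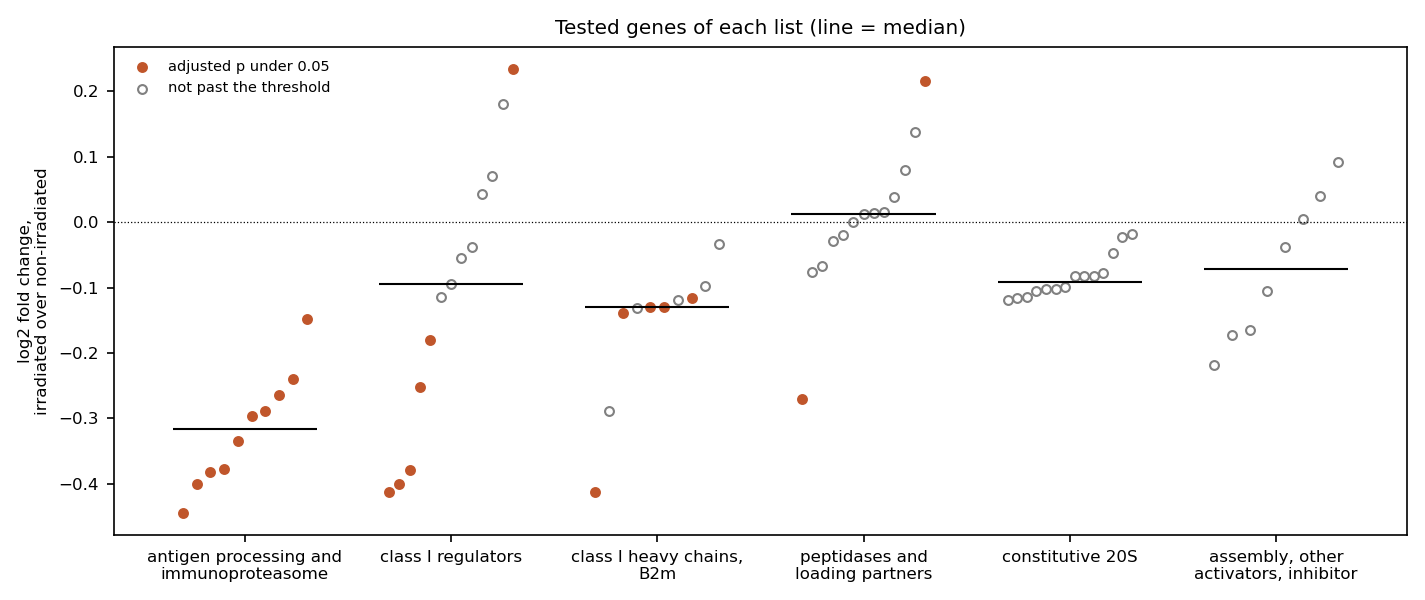
Log2 fold change (y axis, irradiated over non-irradiated, 4 libraries each) of every tested gene in 6 lists, filled where the adjusted p was under 0.05 and open where it was not; horizontal lines are medians. All 10 antigen processing and immunoproteasome genes are filled and below 0 (median -0.32), and all 14 constitutive core genes are open (median -0.091).

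For MHC class II, whose products present peptides from outside the cell, 3 of 10 genes passed the filter on low counts. H2-DMa, a peptide exchange factor, fell 1.39-fold (14.3 ± 1.69 to 10.3 ± 0.855 CPM, edgeR adjusted p = 0.00347), and H2-DMb1 and H2-DMb2 did not pass the test. H2-Aa, H2-Oa and H2-Ob had 0 counts in all libraries, and Cd74 had 8 counts in C6 and 0 elsewhere. Ciita, H2-Ab1 and H2-Eb1, named after their values were seen, had at most 10, 20 and 24 counts in a library.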

How the data were processed

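RNA-seq of MLO-Y4 cells gave 8 libraries. Per the submitters' processing notes, reads were handled on build GRCm39 with tools that include StringTie 2.1.7, HISAT2 2.2.1, DESeq2 1.32.0, FastQC 0.11.9 and Trimmomatic 0.39. No source used here gives settings, annotation release or strand. The authors deposited whole-number estimated counts per gene, not normalized, so nothing was rounded. They vary more than single-read counts (median variance to mean 4.21 and 4.32 in the 2 groups, over genes with a mean of 5 to 100 counts), as if about 4 counts stood for 1 fragment. Columns were tied to groups by the first letter of their names, not to single samples, and 0 columns were left unused.

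Of 55359 identifiers 52083 matched a symbol in GENCODE M21 (GRCm38). That annotation gave names, lengths and gene order, and its build differs from the authors', so coordinates are given only for RefSeq promoter windows of GRCm38.p6. Of the genes listed, H2-L and Nrdc were not matched.

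Genes were filtered with filterByExpr (minimum count 10) and scaled by TMM, and edgeR 4.0.16 (R 4.3.3) ran its robust quasi-likelihood test of group over the 8 libraries. Benjamini-Hochberg adjustment covered 15164 genes, with a threshold of 0.05. SEs of log2 fold changes were derived from the F statistic. Ratios of 2 genes used log2 counts plus 0.5 and the exact two-sided permutation test (scipy 1.17.1). The test was also run on simulated counts, with the same dispersion for every gene and independent libraries. The simulation did not model estimated counts or technical replicates, so it does not settle how the test behaves on these data. Members and lists were chosen with earlier results of these data known. All members and Psmb5, Psmb6, Psmb7 and Psme3 are named; from each other list the rule took at most 4 called genes by size of change, or where none was called 2 genes by p. Some listed genes are not reported here. DESeq2 1.42.0, limma 3.58.1 and other alternatives are in the closing section.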

Additional observations from a re-analysis of the deposited data

Results flagged for a closer look

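Within groups of 4 libraries, a library was singled out where its gap to the nearest other one, as a share of the group's range, exceeded Dixon's critical value for 4 samples at 95%. Of 72 groups examined 3 met this, and chance gives about 1 in 20. For Tap2 C6 was low among the non-irradiated libraries (113.4 CPM, the others 122.2 to 123.8 CPM). For Psme2b C6 was high (61.21 CPM, the others 49.26 to 50.26 CPM). For Stat2 C8 was low (341.3 CPM, the others 364.5 to 368.1 CPM).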

How the results depend on the processing

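Each of the 10 genes was refitted under 18 alternatives (DESeq2, library totals alone, upper-quartile scaling, other filters, limma-voom, counts divided by 4, a replicate block, each library left out, both libraries numbered 6 left out, and Psme2 summed with Psme2b, the last added after seeing the data). All 180 fold changes stayed below 0, from -0.51 to -0.13 on the log2 scale, and 173 stayed past the threshold. The other 7 were all Psmb8, lost without C5, C7, C8, L5, L7 or L8 and with the replicate block. The count of genes called over the whole table was 2270 and ran from 1672 to 2673 when a library was left out.

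The replicate block used the column numbers, which the sources do not say pair the samples. With it 1757 genes were called and Psmb8 lost its call (log2 fold change -0.26, adjusted p = 0.0736). Same-numbered libraries did not deviate together (r across genes from -0.0459 to 0.00144 over 4 pairs), and 0 of the 4 non-irradiated libraries correlated best with their own number.

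The 6 ratios kept their direction and their side of the threshold throughout; with 3 libraries in a group the exact test cannot go below 0.0571, so those values say nothing of stability. The Tap1 to Tap2 difference (-0.091) was -0.04 and the Psme1 to Psme2 difference (0.058) was 0.086 without both libraries numbered 6.

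In library totals alone 5 constitutive core genes were lower and 1 assembly or inhibitor gene; with DESeq2 2 and 1 were; the cause was not tested. Levels per kb take the median transcript as first planned or, equal for all 10 genes, the longest and the principal one (the latter added after seeing that short partial models set the median). By longest and principal they were 48.8 (Tap1), 35.1 (Tap2), 214 (Tapbp), 14.6 (Psmb8), 16.6 (Psmb9), 104 (Psme1), 151 (Psme2) and 4.09 (Nlrc5) CPM per kb, against 55.1, 319.5, 1504, 28.3, 42.5, 163, 183 and 5.39 by the median.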
